A study of Mus musculus with 20 samples.

Results

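The genes described here are those of synaptic vesicle exocytosis and membrane fusion, taken by their names on a mouse expression array: synaptotagmins (Syt), synapsins (Syn), syntaxins (Stx), syntaxin-binding proteins (Stxbp), Snap and Vamp SNARE proteins, complexins (Cplx), SV2 proteins, Rim proteins and genes whose names begin with Rab3. The array held 82 such genes on 164 probes, of which 75, on 143 probes, were bright enough to be tested among 19343 genes. The 7 that were too dim included Cplx4, Stx11, Sv2c, Syt14, Syt2 and Syt8. The name rule also took 12 genes from Rab30 to Rab39b, which are other Rab GTPases, and Snap91, a clathrin adaptor of vesicle endocytosis, and 70 of the 82 genes remain without the Rab30 to Rab39b set.

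RNA came from dissociated mouse hippocampal neurons, grown for 21 days in vitro in 6-well plates and then treated for 24 h. One group received AP5 at 100 µM, which competes with glutamate at the NMDA receptor. A second received 100 nM of NVP-AAM077 (NVP), an antagonist that prefers receptors holding the Grin2a product, another received 1 µM Ro25-4891 (Ro25), a compound given by its code, and the last received vehicle (control). Each group had 5 arrays, 20 in all. On each array the culture's RNA (Cy5) was set against a universal mouse reference RNA (Cy3), so every value below is a log2 ratio of culture over reference, and every change is a difference between 2 groups' mean ratios. The labels used here do not state strain, age at dissection or number of animals, or whether arrays within a group had cultures of their own, so the p-values reflect only array-to-array spread, part of which may be technical.

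Synaptic vesicles fuse when Vamp proteins on the vesicle zip together with syntaxin and Snap25 on the plasma membrane, a step that syntaxin-binding proteins template, complexins clamp and assist, and calcium triggers through synaptotagmins. Synapsins hold vesicles in reserve, SV2 proteins are vesicle glycoproteins that bind synaptotagmin, and Rab3 with its Rim effectors brings vesicles to the active zone. In hippocampal neurons NMDA receptor activity is known to drive activity-dependent transcription in the postsynaptic cell.

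Of the 75 genes tested, 3 differed between AP5 and control at a limma adjusted p under 0.05 (4%, against 6.12% of all genes). Syt12, a synaptotagmin that does not bind calcium, fell 1.5-fold with AP5. Rab3il1, a guanine nucleotide exchange factor that activates Rab3, rose 1.69-fold, and Syt13, another synaptotagmin without calcium binding, rose 1.31-fold. No member passed the test in NVP against control (0% of all genes passed) or in Ro25 against control (0.0155% of all genes passed). The vesicle's main calcium sensor Syt1, the SNARE proteins of fast release and the synapsins did not pass it with any antagonist. A share of 4% lies below the background of 6.12%, so the count of calls is no result about the machinery as a set.

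Promoter windows from RefSeq (build GRCm38.p6, 250 bases before to 50 bases after an annotated start) were found for 62 members. A window of Rab3il1 is shown because this gene rose with AP5. The window is the first listed of those with the GC box letters, so that it holds a match was fixed by that choice. It lies at chr19:10017944-10018243 on the plus strand and holds 4 matches to the GC box letters CCGCCC or their reverse complement, in capitals. It is 1 of 5 windows of the gene, of which 3 hold a match. The window of Syn1, at chrX:20920869-20921168 on the minus strand, is shown because it carries the full palindromic cyclic AMP response element, TGACGTCA, in capitals, the element bound by CREB, which acts in activity-dependent transcription.
Rab3il1: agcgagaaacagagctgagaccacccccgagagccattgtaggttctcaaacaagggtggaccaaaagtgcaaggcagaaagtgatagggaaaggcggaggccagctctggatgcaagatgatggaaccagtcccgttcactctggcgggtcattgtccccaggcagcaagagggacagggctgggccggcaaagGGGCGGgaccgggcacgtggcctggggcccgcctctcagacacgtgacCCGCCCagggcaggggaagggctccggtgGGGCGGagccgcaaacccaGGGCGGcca
Syn1: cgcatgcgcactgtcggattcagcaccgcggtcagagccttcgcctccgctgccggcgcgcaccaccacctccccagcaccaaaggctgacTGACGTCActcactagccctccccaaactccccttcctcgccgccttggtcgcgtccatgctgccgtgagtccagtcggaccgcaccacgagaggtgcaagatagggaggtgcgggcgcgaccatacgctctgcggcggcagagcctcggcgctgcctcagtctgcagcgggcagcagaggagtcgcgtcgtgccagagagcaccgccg
Over both strands, TGACGTCA was found in a window of 2 of the 62 members (3.23%), Stxbp3 and Syn1, against 2.03% of 27025 genes in the table. The shorter TGACG, which the full element contains, was found for 30.6% of members against 23.0% of all genes, and CCGCCC for 77.4% against 38.2%. These are letters in a window, not binding sites. A gene counted if any of its windows held a match, and the number of windows per gene was not matched between members and all genes. Syn1, whose window holds the full element, had a log2 change of −0.18 with AP5 (SE 0.15, limma adjusted p = 0.611).

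In control cultures the members ranged from far above to below the reference RNA. Of the 75, 28 (37.3%) had a mean log2 ratio above 2, which is over 4-fold, against 9.85% of all genes. The ratios of the SNARE Snap25, of Snap91, of Syt1, of Sv2b and of Syn2 averaged 7.82, 7.59, 6.72, 5.73 and 5.37 in control arrays. At the other end Stx4a and Vamp8, SNAREs of the plasma membrane and endosomes in many cell types, averaged −1.97 and −1.85, the GTPase Rab32 averaged −1.84, and the syntaxin-binding proteins Stxbp3a and Stxbp2 averaged −1.82 and −1.72. A ratio tells how a transcript stood against the reference mix, not how abundant it was, so it does not rank genes by level. Among the 16 pan-neuronal markers the mean ratio was 3.78 to 4.51 in AP5, 4.32 to 4.57 in NVP, 4.29 to 4.46 in Ro25 and 4.13 to 4.49 in control arrays. These ratios lie well above the reference, in keeping with the label of neurons. Astrocyte markers (13 genes) also averaged 3.78 ± 0.24 in control arrays (SD, n = 5), and microglial (8 genes) and fibroblast or vessel markers (7 genes) averaged −1.88 and −2.62 there.

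Array AP5 1 stood apart for many members, which bears on every AP5 result below. With the normalization used here it had the lowest of the 5 AP5 ratios for 45 of 75 members and for 26 of the 28 members with a high ratio, where it lay a median of 0.66 below the mean of the other AP5 arrays. Snap25 read 6.80 on AP5 1 and 7.69 to 7.97 on the other AP5 arrays, Snap91 read 6.51 against 7.58 to 7.90, and Sv2b 4.91 against 5.75 to 5.95. Markers moved with it: on AP5 1 the mean of the pan-neuronal markers lay 0.54 below its group mean, that of the astrocyte markers 0.94 below and that of 15 core release genes 0.40 below. In the authors' value table AP5 1 was the lowest AP5 array for 7 of 52 members, and Snap25 read 7.66 there against 7.67 to 7.95. From the scanner's own processed signals it was lowest for 14 of 75 members, while under median centring it was the highest AP5 array for 57 of 75. What sets the array apart was not tested. Without it the changes of the called members against control were −0.53 for Syt12, 0.82 for Rab3il1 and 0.42 for Syt13, and all 3 still passed (limma adjusted p = 0.000761, 0.00115 and 0.0215).

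**Figure D1:**
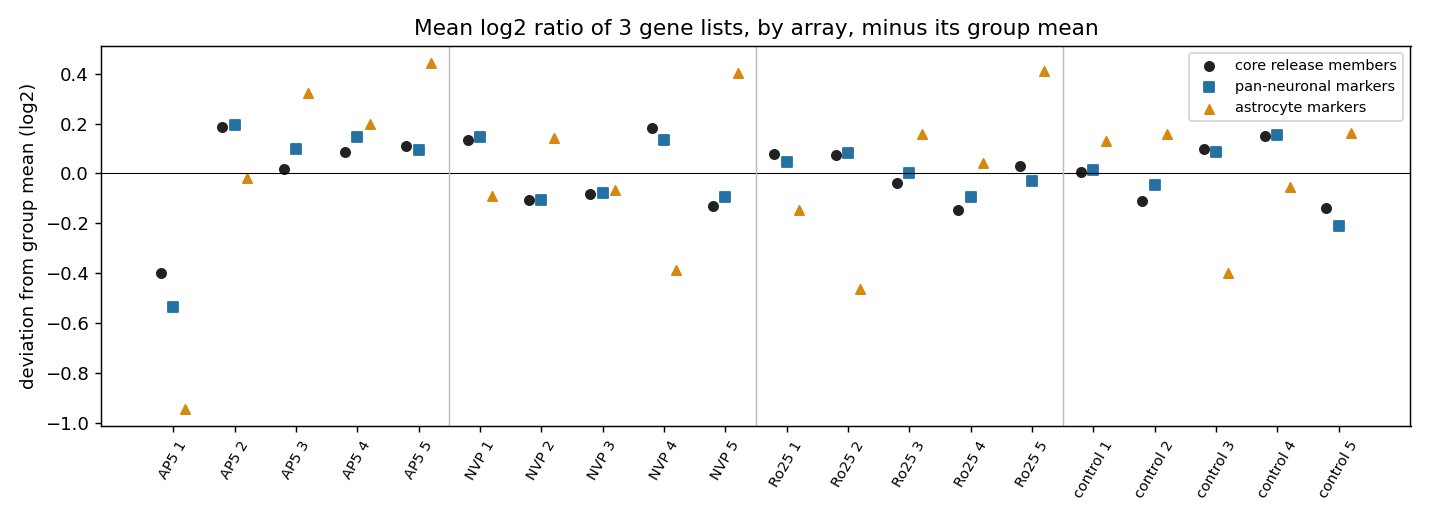
Mean log2 ratio of 15 core release genes (circles), 16 pan-neuronal markers (squares) and 13 astrocyte markers (triangles) on each of 20 arrays, minus the mean of the array's group (log2 units, y axis). Array AP5 1, at the left, lies 0.40, 0.54 and 0.94 below its group mean for these lists.

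Among the calcium sensors of fast release, Syt1 had log2 ratios of 6.10, 7.08, 6.84, 7.13 and 6.88 on AP5 arrays, 7.36, 6.998, 7.05, 7.70 and 6.78 on NVP arrays, 6.89, 7.24, 6.76, 6.65 and 7.11 on Ro25 arrays, and 6.86, 6.51, 7.08, 6.90 and 6.28 on control arrays. All groups overlapped. The AP5 mean of 6.80 ± 0.41 and the control mean of 6.72 ± 0.32 (SD, n = 5 each) differed by 0.08, less than the spread. The low value on AP5 1 weighs on this: without that array the change was 0.26, which did not pass either (limma adjusted p = 0.497). All 5 tested Syt1 probes had a change above 0, and these changes differed by up to 0.38. In 13 alternatives other than leaving out an array, the Syt1 change ran from −0.89 to 0.61 and was called in 0. The highest came from the authors' value table, where another probe was read. Syt9, the other sensor of this kind that was tested, had a change of 0.12 (95% interval −0.14 to 0.38). Of the 5 other calcium-binding synaptotagmins, none passed with AP5. Syt3, a high-affinity sensor found mainly on plasma membranes, came nearest: its AP5 ratios were 2.15, 2.96, 2.96, 3.17 and 2.86, against 2.49, 2.32, 2.60, 2.61 and 2.11 in control. On 4 of the 5 AP5 arrays it lay above every control array, and AP5 1 lay within the control range. The change was 0.39 (SE 0.16, limma adjusted p = 0.178), and without AP5 1 it was 0.56 with a limma adjusted p of 0.0102. Syt3 also passed in 4 of 13 alternatives other than leaving out an array.

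Syt12 was lower with AP5 on every array. Its log2 ratios were 1.29, 1.78, 1.57, 1.59 and 1.35 on AP5 arrays, 2.05, 2.06, 2.03, 2.17 and 1.96 on NVP arrays, 1.95, 2.06, 2.00, 1.77 and 1.76 on Ro25 arrays, and 2.07, 2.07, 2.01, 2.28 and 2.05 on control arrays. The AP5 and control ranges did not overlap, nor did the AP5 and NVP ranges, while the highest AP5 array lay inside the Ro25 range. The log2 change was −0.58 against control (SE 0.087, 95% interval −0.76 to −0.40, limma adjusted p = 0.000252). The probe used lies on the minus strand of chromosome 19, bases 4342186 to 4342245 of mouse build mm7 as the files give it. A second Syt12 probe had a smaller change in the same direction, −0.26, which did not pass in a fit over all probes (SE 0.10, limma adjusted p = 0.175).

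Syt13 ran the other way. It read 2.24, 2.19, 2.37, 2.53 and 2.55 on AP5 arrays, 1.87, 1.88, 1.84, 1.95 and 2.20 on NVP arrays, 1.75, 2.00, 2.02, 1.82 and 2.17 on Ro25 arrays, and 1.88, 1.83, 2.09, 1.91 and 2.24 on control arrays. The 2 lowest AP5 arrays lay just below the highest control array and the rest lay above all control arrays. All AP5 arrays lay above all Ro25 arrays, which held for this member only (1.33%, against 3.95% of all genes). Its change was 0.38 against control (SE 0.10, 95% interval 0.17 to 0.59, limma adjusted p = 0.0250). The call was lost, with an adjusted p of 0.0684 to 0.0749, when AP5 4, AP5 5, control 1, control 2 or control 4 was left out. A second Syt13 probe gave 0.29 (SE 0.12, limma adjusted p = 0.193 over all probes).

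The other synaptotagmins without a role in fast calcium sensing did not pass with AP5. Syt4, which acts on dense-core vesicles, had a change of 0.17 with all arrays and of 0.46 without AP5 1 (limma adjusted p = 0.831 and 0.163). Syt15 was well above background on 5 of 5 control arrays and on 0 of 5 AP5 arrays, so it passed the brightness filter mainly through control. Its ratio with AP5 is unmeasured and no size is given for it. Its change did not pass (limma adjusted p = 0.227).

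**Figure D2:**
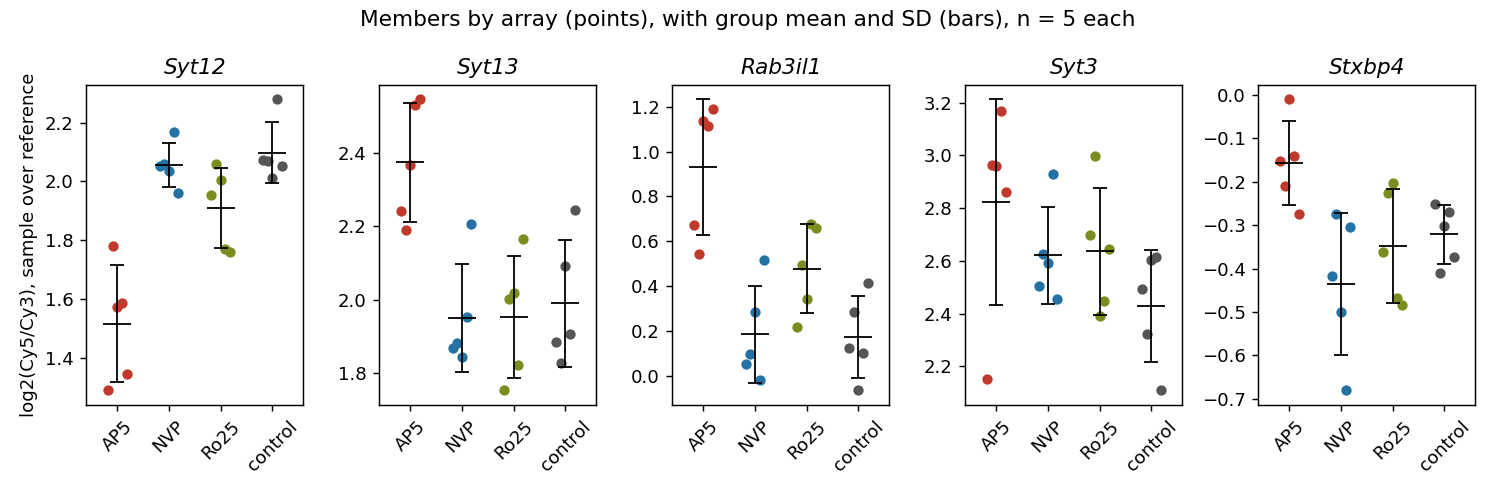
Log2 ratio of culture over reference (y axis) of 5 members on the arrays of each group (points), with the group mean and SD (bars, n = 5). Syt12 lies lower and Rab3il1 higher on AP5 arrays than on any control array, and Syt13 and Syt3 overlap with control. The Stxbp4 probe drawn lies higher on AP5 than on NVP arrays, which its other tested probes did not show.

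The vesicle proteins beside them did not pass with AP5. The synapsins Syn1, Syn2 and Syn3 had changes of −0.18, 0.08 and −0.13 with all arrays and of −0.14, 0.13 and −0.09 without AP5 1. The tested SV2 proteins, Sv2a and Sv2b, both had a change of about −0.05 with all arrays and of 0.02 and 0.15 without AP5 1. Syn1 differed between its probes in ratio: the brighter one, used here, averaged −0.10 in control arrays and another averaged 2.42. They gave changes of −0.18 and −0.03 with AP5.

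Among the SNAREs of fast release, 0 of 5 tested members passed with AP5, and all 5 had a change below 0 on the probe used. Snap25 read 6.80, 7.86, 7.70, 7.69 and 7.97 on AP5 arrays, 8.04, 7.57, 7.68, 7.92 and 7.83 on NVP arrays, 8.005, 7.80, 7.62, 7.96 and 7.99 on Ro25 arrays, and 7.65, 7.85, 7.78, 8.05 and 7.78 on control arrays. Apart from AP5 1, the AP5 arrays lay inside the control range, and the change of −0.22 (SE 0.16, limma adjusted p = 0.548) was −0.02 without AP5 1. Of the 3 tested Snap25 probes 1 had a change above 0, averaging 7.34 on AP5 and 7.24 on control arrays. Vamp1, Vamp2 and Stx1a, partners of Snap25 in fusion, had changes of −0.21, −0.15 and −0.09. Without AP5 1 these were −0.07, −0.17 and −0.005. Of the other plasma membrane SNAREs 0 of 6 passed and of the SNAREs of endosomes and the secretory pathway 0 of 10. Of these, Stx18, a syntaxin of the endoplasmic reticulum, and Stx8, an endosomal syntaxin, had the lowest p with changes of −0.16 and 0.14 (limma adjusted p = 0.155 and 0.200). The AP5 ratios of Stx8 did not overlap with those of control, which held for 3 members (4%, Syt12 and Rab3il1 beside it) and for 6.41% of all genes.

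**Figure D3:**
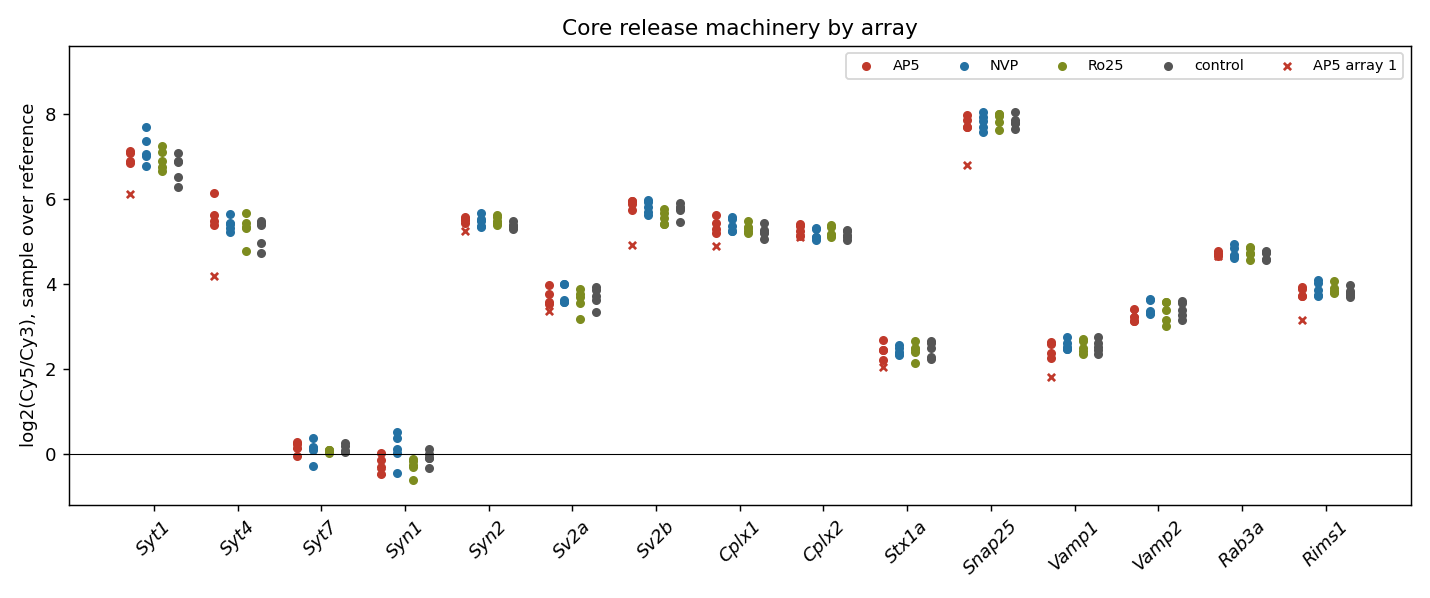
Log2 ratio of culture over reference (y axis) of 15 core release genes on all arrays, with AP5, NVP, Ro25 and control from left to right for each gene and array AP5 1 as a cross. The groups overlap for each gene. The cross stands far below the other AP5 arrays for Snap25, Syt1, Sv2b and Rims1, and lies lowest for other core genes too.

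Of the 7 syntaxin-binding proteins 0 passed with AP5 against control. Among them, Stxbp4 (Synip), a partner of syntaxin 4 known from insulin-stimulated transport in fat cells, had a change of 0.16. Of the complexins 0 of 3 passed: Cplx1 and Cplx2, the neuronal forms, had changes of 0.06 and 0.09 with all arrays and of 0.15 and 0.13 without AP5 1.

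Rab3il1 was the member with the largest called change. It read 0.67, 0.54, 1.14, 1.12 and 1.19 on AP5 arrays, 0.05, 0.10, 0.29, −0.02 and 0.52 on NVP arrays, 0.22, 0.50, 0.34, 0.68 and 0.66 on Ro25 arrays, and 0.12, 0.29, −0.06, 0.10 and 0.42 on control arrays. All AP5 arrays lay above all NVP and control arrays, and 2 AP5 arrays overlapped with Ro25. The change was 0.76 against control (SE 0.14, 95% interval 0.47 to 1.04, limma adjusted p = 0.00154). The probe used lies on the plus strand of chromosome 19, bases 9715455 to 9715514 of mm7. Its 2 other probes, at bases 9715154 to 9715213 and 9714888 to 9714947, gave changes of 0.24 and 0.10 that did not pass (limma adjusted p = 0.160 and 0.712 over all probes). All 3 probes had the same sign, and 1 of the 3 passed.

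The Rab3 GTPases themselves and their other regulators did not pass. Rab3a, the main form on synaptic vesicles, had a change of 0.02 (95% interval −0.13 to 0.17) and Rab3c one of −0.19, or −0.06 without AP5 1. Of the Rim proteins, which tether vesicles and calcium channels, 0 of 4 passed, and Rims1 had a change of −0.13 with all arrays and of 0.002 without AP5 1. Of the 12 genes from Rab30 to Rab39b 0 passed.

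**Figure D4:**
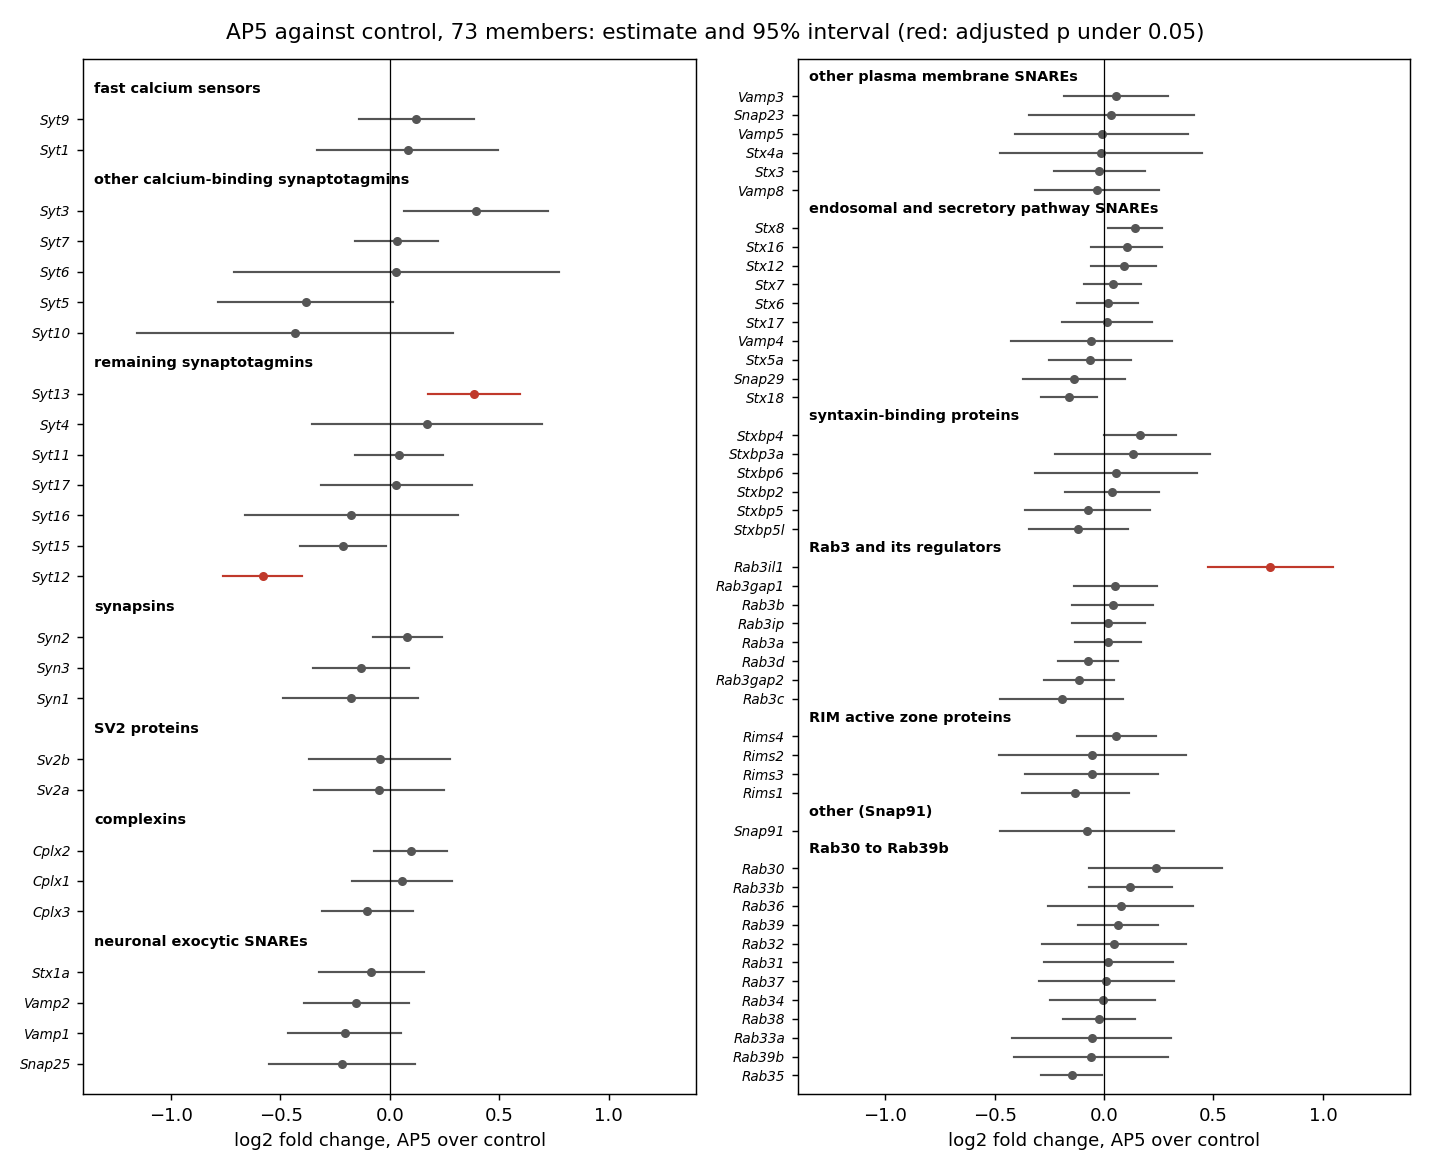
Log2 fold change of AP5 over control (x axis) with its 95% interval for 73 members, grouped by role, with calls at a limma adjusted p under 0.05 in red. Syt12 lies at −0.58, Syt13 at 0.38 and Rab3il1 at 0.76, and most of the others lie near 0.

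Over all 75 members the median change with AP5 was −0.007, with 37 changes above 0 and 38 below, beside a median of −0.01 over all genes. This balance depended on the arrays and the fit: the member median was 0.05 without AP5 1, and −0.12 with 30 changes above 0 and 45 below in the fit with slide as a block. On the AP5 side the block fit rests on AP5 1 and AP5 5. In the main fit the 95% interval of the change lay within 1.5-fold in either direction for 66 members (88%), and for 89.3% of all genes. For the 15 core release genes that held for 14, with changes from −0.22 to 0.17. Without AP5 1 the core changes ran from −0.17 to 0.46 and 13 intervals lay within 1.5-fold. This bound also depended on the processing. Under median centring only 9 of the 15 core intervals lay within 1.5-fold, with changes from −0.11 to 0.32. Of the 14 core genes in the authors' values 12 did, with changes from −0.16 to 0.61. From the scanner's processed signals 14 of 15 did, with changes from −0.17 to 0.37. Without the 12 genes from Rab30 to Rab39b the share called was 4.76% of 63. In bulk cultures fewer cells of a type and less RNA per cell cannot be told apart. Among marker lists in AP5 against control, 1 of 16 pan-neuronal, 1 of 9 excitatory, 0 of 12 inhibitory, 0 of 13 astrocyte, 0 of 9 oligodendrocyte, 2 of 8 microglial and 2 of 7 fibroblast or vessel markers passed. These were Celf4 (0.67), Wfs1 (0.48), Csf1r (0.46), Fcer1g (−0.38), Kdr (0.73) and Col1a2 (−0.25). Their part in the 3 calls was not tested.

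Slide and group were tied. The arrays lay on 7 slides and none held AP5 together with control or NVP together with control. A fit with slide as a block thus reaches control through other groups and rests on few arrays. In it the AP5 side rests on AP5 1 and AP5 5, and the control side on control 3. The other AP5 and control arrays shared no slide with another group. In that fit Syt12 had a change of −0.94 with AP5 (SE 0.17, limma adjusted p = 0.0423), Rab3il1 one of 1.10 (SE 0.37, adjusted p = 0.198) and Syt13 one of 0.24 (SE 0.28, adjusted p = 0.677), with 41 genes called in all. On slide 2, AP5 5 differed from 3 NVP arrays by −0.74 for Syt12, 1.07 for Rab3il1 and 0.65 for Syt13. On slide 6, AP5 1 differed from Ro25 2 by −0.77, 0.18 and 0.24 for the same genes. Among the 17 arrays scanned on the first day, Syt12, Rab3il1 and Syt3 passed and Syt13 did not (change of 0.43, limma adjusted p = 0.0510). The arrays scanned later were AP5 1, AP5 3 and Ro25 2, so this setting also leaves out AP5 1 and is no separate check on scan day.

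NVP against control gave 0 called members by limma, and 4 of 75 (5.33%) had an unadjusted p under 0.05, against 5.88% of all genes. One of them was Syt15, which was well above background on 1 of 5 NVP arrays and 5 of 5 control arrays and so passed the brightness filter mainly through control. Its ratio in NVP is for the most part unmeasured, and no size is given for it. The others were Syt17 with a change of 0.48, the endosomal SNARE Vamp4 with −0.41 and Syt1 with 0.45. The next lowest p was that of Cplx3, a complexin best known from retinal ribbon synapses, with −0.17. Vamp4 read 2.05, 2.09, 2.00, 1.98 and 2.31 on NVP arrays and 2.41, 2.68, 2.51, 2.37 and 2.53 on control arrays, so those ranges did not overlap. Ranges were apart for 2 members (2.67%, against 1.84% of all genes), but the other was Syt15, whose NVP values lie mostly at background, so Vamp4 alone was measured on both sides. It did not pass (limma adjusted p = 0.783). For 67 of 75 members the 95% interval lay within 1.5-fold.

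Ro25 against control also gave 0 called members by limma, with 2 of 75 (2.67%) at an unadjusted p under 0.05, against 4.34% of all genes. Those 2 were Rab3il1, with 0.31 (95% interval 0.02 to 0.59), and Syt12, with −0.19 (95% interval −0.37 to −0.005), both in the direction they took with AP5 and both far from passing over all genes (limma adjusted p = 1.00). The AP5 and Ro25 comparisons share the control arrays. Next came Syn3, Syn2 and Rab3gap2, a subunit of the Rab3 GTPase-activating protein, with changes of −0.21, 0.13 and −0.11. No member's Ro25 and control ranges were apart, against 1.03% of all genes. Slide 4 carried 3 Ro25 arrays beside control 3, and there Rab3il1 differed by 0.58 and Syt12 by −0.18.

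The antagonists were then set against each other, with the AP5 arrays shared between 2 of these comparisons. In AP5 against NVP 4 of 75 members passed (5.33%, against 5.78% of all genes). The AP5 and NVP ranges were apart for 3 members (4%, Syt12, Rab3il1 and Stxbp4), against 6.95% of all genes. Syt12 was lower, with a log2 difference of −0.54 (SE 0.087, limma adjusted p = 0.000662), Rab3il1 higher by 0.75 (SE 0.14, adjusted p = 0.00194), Syt13 higher by 0.42 (SE 0.10, adjusted p = 0.0143) and Stxbp4 higher by 0.28 (SE 0.079, adjusted p = 0.0414). Stxbp4 read −0.15, −0.21, −0.01, −0.14 and −0.27 on AP5 arrays and −0.42, −0.28, −0.50, −0.68 and −0.30 on NVP arrays, with the lowest AP5 array just above the highest NVP array. Its 2 other tested probes gave −0.04 and −0.11, and the call was lost, with a limma adjusted p of 0.0501 to 0.130, without AP5 1, 3 or 4, NVP 1, 3 or 4, Ro25 1 or control 1, 3 or 4. Syt5, a calcium-binding synaptotagmin, read 1.54, 2.89, 2.01, 2.49 and 2.35 on AP5 arrays and 2.82, 2.94, 2.98, 3.08 and 2.50 on NVP arrays. Only AP5 2 lay inside the NVP range, and the difference was −0.61 (SE 0.19, limma adjusted p = 0.0698).

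In AP5 against Ro25, Syt12 was lower, with a log2 difference of −0.39 (SE 0.087, limma adjusted p = 0.0130) and Syt13 higher by 0.42 (SE 0.10, adjusted p = 0.0217), 2 of 75 members (2.67%, against 3.1% of all genes). The Syt13 call was lost, with an adjusted p of 0.0591 to 0.0693, without AP5 4 or 5 or Ro25 1 or 4. Rab3il1 differed by 0.45 (95% interval 0.17 to 0.74, limma adjusted p = 0.0842) and Rab3c by −0.36 (adjusted p = 0.186). In NVP against Ro25, 0 members passed by limma, 0% of all genes did, and 4 of 75 (5.33%) had an unadjusted p under 0.05 against 5.91% of all genes. The lowest p was that of Syn1, with 0.41 (SE 0.15, limma adjusted p = 0.811). Rab3il1 differed by −0.29 (95% interval −0.58 to −0.007) and Rab30 by −0.29.

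Other parts of the vesicle cycle were read from gene lists outside the name rule. Their counts stand beside the 6.12% of all genes that passed, and no test of a list was made. For endocytosis 3 of 22 genes passed with AP5 against control: Synj2, a phosphoinositide phosphatase related to synaptojanin 1, fell by 0.88 on the log2 scale (SE 0.075, limma adjusted p = 2.02e-07), Ap2b1, a subunit of the AP-2 clathrin adaptor, fell by 0.28 (SE 0.061, adjusted p = 0.00728), and Amph (amphiphysin) rose by 0.39 (SE 0.10, adjusted p = 0.0269). Of 24 vesicle membrane proteins and transporters 1 passed, Sypl, a synaptophysin-like protein, which rose by 0.34 (SE 0.083). Of 14 tested genes of SNARE disassembly and priming 0 passed, and 0 of 16 active zone scaffolds, with 0 and 2 at an unadjusted p under 0.05. The median changes of these 4 lists lay between −0.05 and 0.01.

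Probes of the same member differed in ratio. For the 43 members with 2 or more passing probes, the control means of the probes differed by a median of 1.10, and by up to 4.23 for the 5 probes of Syt1. In AP5 against control, all passing probes had 1 sign for 29 of the 43. In the fit over 28498 probes, 1442 were called for AP5 against control, among them probes of 3 members.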

How the data were processed

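RNA was measured on 20 Agilent arrays of 2 colours, per the labels with culture RNA in Cy5, universal mouse reference in Cy3 and no dye swap. The authors deposited scanner output, which holds linear spot intensity and a log10 ratio of processed red over green signal, and a value table of log2 ratios. The headers name Feature Extraction 10.7.3.1 as the scanner software, while 11.0 stands in the submitters' processing notes. Over 11118 probes the table followed the ratios computed here with slopes of 0.992 to 1.02 on 19 arrays and 1.12 on AP5 1 (r from 0.994), so its scale and direction are known. Medians of its columns ran from 0.0302 to 0.0626, and its centring is unknown. All 20 sample columns were used.

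Intensities were corrected with normexp (offset 50) and normalized by loess within arrays. Control spots and spots marked as outliers by the scanner software (86 to 172 per array) were left out, 0 spots were saturated, and spots of a probe were averaged. Per array, 58.6 to 69.3% of probes had red signal well above background. A probe was kept if that held on at least 5 arrays, and a gene was read from its brightest probe. Names came from the files and a RefSeq table (GRCm38.p6). 3 probes that carry a member's current symbol under another file name were set aside. Every member tested had a value on all 20 arrays. limma 3.58.1 (R 4.3.3) fitted 4 group means (residual df 16, prior df 3.67) and tested 6 pairs two-sided, with Benjamini-Hochberg adjustment over 19343 genes at 0.05. On data simulated for AP5 against control over 19307 genes, 87 of 100 genes changed 1.5-fold and 93 of 100 changed 2-fold were called, with 5 false calls among 185. The simulated noise was independent between genes and arrays, with no slide effect and no array that stood apart. These rates therefore need not hold for the data here.

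Members and lists were chosen with earlier results of these data known. Named were members called in any pair, 15 core genes, the 5 lowest p per pair, the 5 highest and lowest ratios, and up to 3 called genes per outside list. Genes singled out beside these were chosen after their values were seen. Some members are not reported here by name. Tried as alternatives were other background and within-array normalization, the filter, the mean of probes, the authors' table, slide and replicate blocks, scan day, array weights, 2 groups only and leaving out each array. The number of arrays limits precision.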

Additional observations from a re-analysis of the deposited data

Results flagged for a closer look

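Among 144 sets of 5 arrays, for 36 named members in 4 groups, 11 held 1 array far from the other 4, where chance gives about 1 in 20. In 5 sets this was AP5 1, lowest for Snap25 (6.80, the next being 7.69), Snap91 (6.51, next 7.58), Syt1 (6.10, next 6.84), Sv2b (4.91, next 5.75) and Rims1 (3.14, next 3.70). AP5 1 is also the array whose ratios moved with the normalization, as given above. AP5 3 was highest for Vamp4 (3.29, the next being 2.36). On control arrays, Syt12 was high on control 4 (2.28, next 2.07), Syt5 low on control 5 (2.16, next 2.67) and Cplx3 low on control 1 (0.14, next 0.33). On Ro25 arrays, Rab3c was low on Ro25 3 (2.74, next 3.17) and Rab3gap2 high on Ro25 2 (−0.0924, next −0.349).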

How the results depend on the processing

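In 13 alternatives other than leaving out an array, Syt12 against control ranged from −0.94 to −0.42 and was called in 12, Rab3il1 from 0.37 to 1.10 and was called in 12, and Syt13 from 0.24 to 0.54 and was called in 9. Syt3, not called in the main fit, ranged from −0.40 to 0.69 and was called in 4. These were processed signals, the first scan day, the authors' table (0.50, limma adjusted p = 0.00615) and array weights (0.46, limma adjusted p = 0.0229). For AP5 against control 5 members were called from the scanner's processed signals (4 higher, 1 lower, with Syt3 and Rab39 added), against 3 (2 higher, 1 lower). Under median centring 1 was called (Rab3il1, higher), and Syt12 then had −0.52 (limma adjusted p = 0.185). In the fit with the slide block 1 was called (Syt12). Over all genes the calls in these 3 settings were 1535, 165 and 41, against 1183. For AP5 against NVP 4 members were called, 0 under median centring, 2 with the mean of a gene's probes and 1 with the slide block (Syt12). Over all genes these counts were 1118, 121, 988 and 108. Stxbp4 in that comparison was −0.11 in the authors' table (limma adjusted p = 0.603) and was called in 3 of the 13 alternatives. For AP5 against Ro25 2 members were called and 0 under median centring. The count was 1 with the mean of probes (Rab3il1), 1 with the slide block (Syt12), 0 on the first scan day and 0 with only the 2 groups compared. Over all genes these counts were 599, 85, 549, 205, 300 and 235. Leaving out each array gave 2 to 4, 3 to 7 and 1 to 3 member calls in these comparisons. The 7 came without NVP 5, with Syn1, Syt5 and Syt10 added (chosen after their values were seen); 1 call was left for AP5 against Ro25 without AP5 4, AP5 5, Ro25 1 or Ro25 4. NVP against control, Ro25 against control and NVP against Ro25 gave 0 member calls in each setting. The median ratio of members in control arrays was 0.94, and 1.41 from processed signals, 1.09 under median centring, 1.15 with offset 16, 1.02 with the filter at 10 arrays and 1.10 in the authors' table. The causes were not tested. With replicate number as a block (replicate block), 3, 3 and 3 members were called for AP5 against control, NVP and Ro25, and 1238, 1178 and 658 of all genes. Of 30 same-number pairs 11 correlated over 0.1, and 4 of 20 arrays correlated best with their own number. These correlations cannot tell whether arrays with the same number shared a preparation.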
